A study of Arabidopsis thaliana with 30 samples.

Results

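Class III peroxidases are secreted haem enzymes of plants that use hydrogen peroxide to oxidise phenolic compounds and other substrates in the cell wall and vacuole. Through this reaction they couple monolignols into lignin, cross-link wall proteins and phenolics, or, in another catalytic cycle, form reactive oxygen species that can loosen the wall. The family is large in Arabidopsis thaliana and its members differ in the tissues that express them, root epidermis and endodermis among them. The 64 genes described here were those with a single-locus probe set whose annotation in the deposited tables contains the word peroxidase, without glutathione, ascorbate, thioredoxin or peroxiredoxin, out of 21227 genes that the arrays represent by single-locus probe sets. Each of the 64 had 1 probe set, and all 64 matched a locus of the reference gene table. They lay on all 5 chromosomes, with 14, 9, 6, 13 and 22 genes on chromosomes 1 to 5.

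The label did not hold for every member. The annotation of 3 of the 64 names something other than a class III peroxidase gene. CSD1 (AT1G08830) encodes a copper/zinc superoxide dismutase and was matched because the annotation spells it superoxidase. AT1G62250 is annotated as an unknown protein with similarity to a peroxidase, and AT1G34330 is a transcribed pseudogene in the reference table. These 3 were kept in all counts, as the rule requires, and are named where they carry a result. A further 6 probe sets annotated as peroxidase match several loci each, PRXCA and PRXCB (AT3G49110 and AT3G49120) among them, and lay outside the 64.

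The samples were shoots and roots of 10-day-old Col-0 seedlings, hybridised to separate Affymetrix arrays, with 3 arrays in each of 5 groups per tissue and 30 arrays in all. Wild type seedlings were moved at 7 days to medium with 5 mM ammonium nitrate (sufficient) or without nitrogen (starved) for 3 days. Seedlings overexpressing AtNIGT1.2, a GARP-type transcription factor that the study set out to find targets of, were starved in the same way. A line with an estradiol-inducible AtNIGT1.2-VP fusion (VP is not spelled out in the labels) was moved at 9 days to 5 mM ammonium nitrate and given estradiol or mock treatment for 24 h. The labels used here name neither the promoter of the overexpression construct nor the number of independent lines, and they call the replicates biological without naming separate plates or plants. P-values therefore measure the spread between these arrays, and the number of arrays limits the precision of every value.

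Array medians lay between 6.61 and 6.76 in shoots and between 6.92 and 7.08 in roots, in log2 expression units. The AtNIGT1.2 transcript followed its labels: in roots it stood at 7.81 ± 0.08 (mean ± SD, n = 3) in the starved wild type and 13.67 ± 0.08 in the overexpressor, and it rose from 9.21 ± 0.04 with mock treatment to 13.33 ± 0.05 with estradiol. In shoots the same 4 groups stood at 7.26 ± 0.84, 13.88 ± 0.08, 9.56 ± 0.08 and 12.50 ± 0.13. Root hair markers summed to 8.00 to 8.05 in sufficient shoots and 10.87 to 11.27 in sufficient roots, on tables that were normalized separately. Root arrays also carried transcripts of green tissue: 4 photosynthesis markers summed to 10.78 to 10.87 in sufficient roots, 9.38 to 9.44 in starved roots, 8.01 to 8.12 in overexpressor roots, 9.85 to 10.10 in the mock-treated VP line and 10.16 to 10.39 with estradiol. The 3 of them that were tested in roots all fell with starvation and in the overexpressor, and with estradiol 1 rose and 2 fell. Their part in the peroxidase values was not tested.

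In each tissue 4 comparisons were made. Nitrogen starvation sets the starved against the sufficient wild type, overexpression sets the overexpressor against the wild type (both starved), and VP induction sets estradiol against mock treatment. The mock-treated VP line against the sufficient wild type serves as background. In that last comparison line, time since transfer and the mock treatment differ together and cannot be told apart. Nitrogen starvation shares the arrays of the starved wild type with overexpression and those of the sufficient wild type with the background comparison, which in turn shares the mock arrays with VP induction. Overexpression and VP induction share no array. No wild type group was given estradiol, so in VP induction the fusion and estradiol itself cannot be told apart. Values are log2 expression, differences are log2 fold changes ± the standard error of the fit, and a gene is said to have risen or fallen only at an adjusted p under 0.05 in limma, adjusted over all 15922 probe sets tested in that tissue. Members named for the largest changes were picked among called members whose groups do not overlap. For them a lack of overlap was fixed by the choice and adds no support.

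The roots measured more of the family than the shoots. Probe sets were tested where the mean of the 15 arrays reached the 30th percentile of all probe sets, which was 5.33 in roots and 5.03 in shoots. In roots 52 of the 64 members passed and 12 did not, and in shoots 34 passed and 30 did not. Passing in both tissues were 33 members, 19 passed in roots only, AT5G58390 in shoots only, and 11 in neither. The member just inside the limit in shoots was AT1G14550 at 5.07 and the one just outside was ATP22a (AT2G18980) at 4.98. In roots these were AT1G34330 at 5.38 and AT5G47000 at 4.96. AT1G14550 and AT4G08780 in shoots passed only through the estradiol group, AT1G34330 in roots through the starved wild type and AT5G64110 in roots through the sufficient wild type, so these 4 had to differ between groups. The 5 group means of a member spanned at least 1 log2 unit for 27 of the 64 in roots (42.2%, against 12.6% of all probe sets) and for 19 in shoots (29.7%, against 21.1%).

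In roots, nitrogen starvation raised a large share of the measured peroxidase genes. Of 52 tested, 32 rose and 9 fell, a called share of 78.8% where 54.8% of all probe sets tested were called. By direction, 33.1% of all probe sets rose and 21.8% fell. The median log2 fold change was 0.33 over the members and 0.06 over all probe sets. A change of at least 1 was called for 8 members (15.4%), against 5.28% of all probe sets. The tested members include AT1G34330 and AT5G64110, which passed the filter only through the starved and the sufficient wild type, respectively. With no filter 32 of 64 members rose and 14 fell, 71.9% called against 47% of all probe sets. The measurement is of whole roots, in which fewer cells of a type and less RNA per cell cannot be told apart.

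The largest rises were in ATP21a and RHS19, both of the root hair list, followed by AT1G34510 and ATPN, which are outside it. RHS19 (AT5G67400), a root hair specific gene, stood at 9.59, 8.90 and 9.11 in the 3 sufficient arrays and at 10.75, 10.43 and 10.92 in the 3 starved arrays, a log2 fold change of 1.50 ± 0.12, adjusted p = 1.55e-09. ATP21a (AT3G49960) stood at 9.14, 8.22 and 8.45 with nitrogen and at 10.17, 10.01 and 10.39 without, a change of 1.59 ± 0.14, adjusted p = 7.08e-09. For both genes all starved arrays lay above all sufficient arrays. RHS18 (AT5G22410), also named for its root hair specificity, rose by 1.13 ± 0.17, adjusted p = 1.08e-05, and AT1G30870 rose by 0.87 ± 0.08 and AT4G26010 by 0.59 ± 0.10. Of the 7 tested peroxidases of the root hair list 5 rose and 1 fell, where 33.1% of all probe sets tested rose and 21.8% fell. The median of the list was 0.87. The one that fell was ATP3a (AT5G64100), at -0.30 ± 0.08, a value of -0.19 without replicate 1 of the sufficient wild type, adjusted p = 0.0398. ATP24a (AT5G39580) was not called at 0.23 ± 0.15.

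Markers of root hairs moved in the same direction. All 8 rose, with a median of 0.87: RHD6, a regulator of root hair initiation, by 1.39 ± 0.10, PRP3, a root hair wall protein, by 1.42 ± 0.12, and COBL9, needed for tip growth, by 0.89 ± 0.08. Their summed level ran from 10.87 to 11.27 in sufficient and from 11.79 to 12.07 in starved roots. The part of root hair number in the peroxidase values was not tested. In the plot of root levels the replicates of the sufficient wild type are the most scattered for these genes, with replicate 1 the highest for RHS19, ATP21a and AT1G34510.

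**Figure D1:**
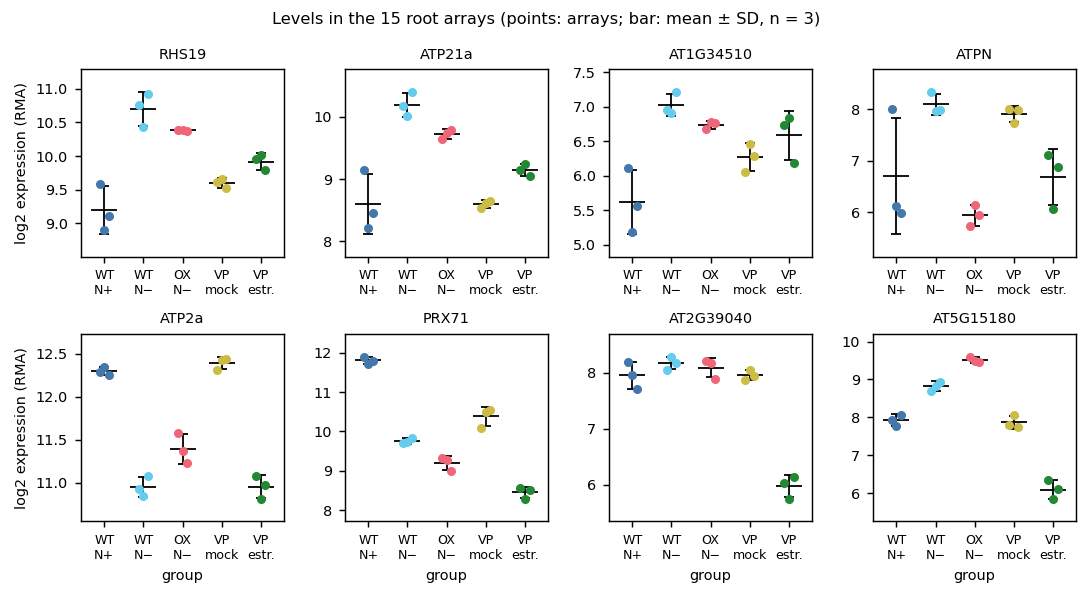
Log2 expression (RMA, vertical axes, one scale per gene) of 8 peroxidase genes in the 15 root arrays, by group: wild type with (N+) and without nitrogen (N-), starved overexpressor (OX N-), and the VP line with mock or estradiol (estr.). Points are arrays and bars are means ± SD (n = 3); RHS19, ATP21a and AT1G34510 are highest in the starved wild type, while PRX71 and ATP2a are highest with nitrogen or mock treatment, and AT2G39040 and AT5G15180 are lowest with estradiol.

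Outside that list, AT1G34510 rose by 1.41 ± 0.18, adjusted p = 9.08e-07 and AT2G35380 by 1.02 ± 0.11, adjusted p = 6.52e-08. PA2 (AT5G06720), a peroxidase of the burst and defence list, rose by 0.99 ± 0.12, from 5.96, 5.56 and 5.96 to 6.76, 6.70 and 7.01 with no overlap. ATP23a (AT1G68850) rose by 0.95 ± 0.09, AT5G15180 by 0.90 ± 0.11 and ATP4a (AT1G71695) by 0.81 ± 0.07. ATPN (AT5G19890) is a case where 1 array decides the spread: it stood at 8.00, 6.12 and 5.99 in the sufficient arrays and at 8.33, 7.97 and 7.99 in the starved arrays, so that the groups overlap at replicate 1 although the change of 1.40 ± 0.34, adjusted p = 0.00142 was called.

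The falls were fewer, and the largest were in abundant signals. PRX71 (AT5G64120), a wall peroxidase whose activity limits cell expansion, stood at 11.90, 11.72 and 11.80 in sufficient and 9.71, 9.72 and 9.84 in starved roots. This is a fall of 4.14-fold, with a log2 fold change of -2.05 ± 0.10, adjusted p = 4.65e-13. ATP2a (AT2G37130) fell from 12.29, 12.35 and 12.25 to 10.93, 10.85 and 11.08, at -1.35 ± 0.08, adjusted p = 3.89e-12. Neither gene's groups came near each other. AT5G64110, which lies between ATP3a and PRX71 on chromosome 5 and passed the filter only through the sufficient arrays (adjusted p = 3.42e-08 with no filter), fell by a smaller margin (-0.76 ± 0.08), as did AT4G31760 (-0.50 ± 0.09), AT2G22420 (-0.48 ± 0.08) and ATP8a (AT4G30170; -0.35 ± 0.07).

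Peroxidases of lignin and the Casparian strip changed in both directions under starvation. Of the 10 tested on that list 3 rose and 2 fell, a called share of 50% against the 54.8% of all probe sets, with a median of 0.09. AT4G36430 rose by 0.50 ± 0.09 and ATP19a by 0.38 ± 0.07, while AT2G22420 fell by 0.48 ± 0.08 and AT4G33420 by 0.31 ± 0.06. PER64 (AT5G42180), which polymerises lignin at the Casparian strip of the endodermis, was not called at 0.09 ± 0.06, and PRX72 (AT5G66390), a peroxidase of lignification, was not called at -0.08 ± 0.06. Among the genes that supply monolignols, all 15 tested rose, with a median of 0.64, 4CL1 by 1.14 ± 0.04 and PAL1, the entry enzyme of the phenylpropanoid pathway, by 0.91 ± 0.05. Of the laccases, the copper oxidases that also couple monolignols, 5 rose and 1 fell of 11 tested, with a median of 0.13. Of the NADPH oxidases (RBOH), which make the superoxide that dismutates to hydrogen peroxide, 7 rose and 0 fell of 8 tested, with a median of 0.39, and RBOHE changed by 1.00 ± 0.12. Endodermis markers rose for 5 of 8 and fell for none, with CASP1 at 0.47 ± 0.05, and xylem markers fell for 3 of 6 and rose for none. Of the regulators 3 of 6 rose, RHD6 and RSL4 of root hairs and the lignin regulator MYB63 (0.66 ± 0.13), and none fell.

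Peroxidases of the burst and defence list rose for 4 of 6 and fell for 1, PRX71. Over all probe sets tested 33.1% rose and 21.8% fell. PER4 (AT1G14540), which is induced by bacterial flagellin, rose by 0.43 ± 0.10, its neighbour AT1G14550 by 0.70 ± 0.15, and Prx37 (AT4G08770), whose overproduction gives dwarf plants with altered wall phenolics, by 0.73 ± 0.12. All 3 peroxidases reported as targets of the growth regulator UPB1 rose: ATP19a (AT4G11290) by 0.38 ± 0.07, AT4G16270 by 0.35 ± 0.10 and ATP13a (AT5G17820) by 0.23 ± 0.05, while UPB1 itself was not called (-0.16 ± 0.17). Of the 41 calls, 35 were kept without each of the 6 arrays in turn. The 6 that were not are AT2G43480, AT3G01190, AT3G28200, AT4G08780, AT5G24070 and AT5G51890, whose changes lay between 0.16 and 0.46.

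In starved roots the overexpressor differed from the wild type in both directions. Of 52 tested, 11 members were higher and 15 lower, together 50%, where 38.1% of all probe sets were called (21.4% higher and 16.7% lower). The median was -0.08 for the members and 0.03 for all probe sets, and 2 members (3.85%) were called with a change of at least 1, against 2.63% of all. These 2 were ATPN and ATP4a. ATPN stood at 8.33, 7.97 and 7.99 in the starved wild type and at 5.73, 6.14 and 5.95 in the overexpressor, a fall of 2.16 ± 0.34, adjusted p = 2.84e-05, with every overexpressor array below every wild type array. ATP4a fell by 1.25 ± 0.07, adjusted p = 8.59e-12, from 8.88, 9.0 and 8.96 to 7.72, 7.65 and 7.71.

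Lignification is the known role of PRX25 (AT2G41480), which fell by 0.89 ± 0.12 (adjusted p = 2.59e-06). The UPB1-listed AT4G16270 fell by 0.68 ± 0.10, ATP19a by 0.49 ± 0.07, and ATP13a of the same list rose by 0.19 ± 0.05. UPB1, a transcription factor that represses peroxidase genes in the root tip, was itself lower (-0.88 ± 0.17). PRX71, already low under starvation, was lower again (-0.56 ± 0.10, adjusted p = 1.77e-04), while ATP2a was higher, at 11.58, 11.37 and 11.22 in the overexpressor (0.44 ± 0.08, adjusted p = 1.05e-04). AT5G15180 rose by 0.69 ± 0.11, adjusted p = 3.80e-05, AT5G06730 by 0.60 ± 0.11 and PA2 by 0.51 ± 0.12. None of these groups overlapped, which was required of the members named for the largest changes.

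Over all probe sets tested 21.4% were higher and 16.7% lower in the overexpressor. Root hair peroxidases were lower or not called. Of the 7 tested, 3 fell and none rose: AT4G26010 (-0.49 ± 0.10), ATP21a (-0.47 ± 0.14; -0.37 without replicate 3 of the starved wild type, adjusted p = 0.0797, and not called either without replicate 1 of the overexpressor) and RHS19 (-0.32 ± 0.12; -0.21 without replicate 3 of the starved wild type, adjusted p = 0.244, and not called either without replicates 1 or 2 or 3 of the overexpressor or replicate 1 of the starved wild type). The summed root hair markers ran from 11.79 to 12.07 in the starved wild type and from 11.99 to 12.03 in the overexpressor, and 2 of 8 markers rose and 1 fell. Of the lignin and Casparian strip list, 3 of 10 fell and none rose, with PER64 (0.10 ± 0.06) and PRX72 (0.03 ± 0.06) not called. Of the burst and defence list 1 of 6 rose and 2 fell. Of monolignol synthesis 2 rose and 9 fell of 15 tested, with a median of -0.14, and CAD4, a late enzyme of that pathway, changed by -0.88 ± 0.05. Of the laccases 3 rose and 4 fell of 11 tested, with a median of 0.06. Among the NADPH oxidases 2 of 8 rose and 2 fell, RBOHB by 1.04 ± 0.12. Endodermis markers rose for 4 of 8, xylem markers rose for 1 and fell for 1 of 6, and 3 of 6 regulators fell. Without each of the 6 arrays in turn 20 of the 26 calls were kept. Those lost were ATP21a, RHS19, AT4G08780, AT1G62250, AT5G24070 and ATP26a (AT5G40150), all with changes of less than 0.5 in size.

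**Figure D2:**
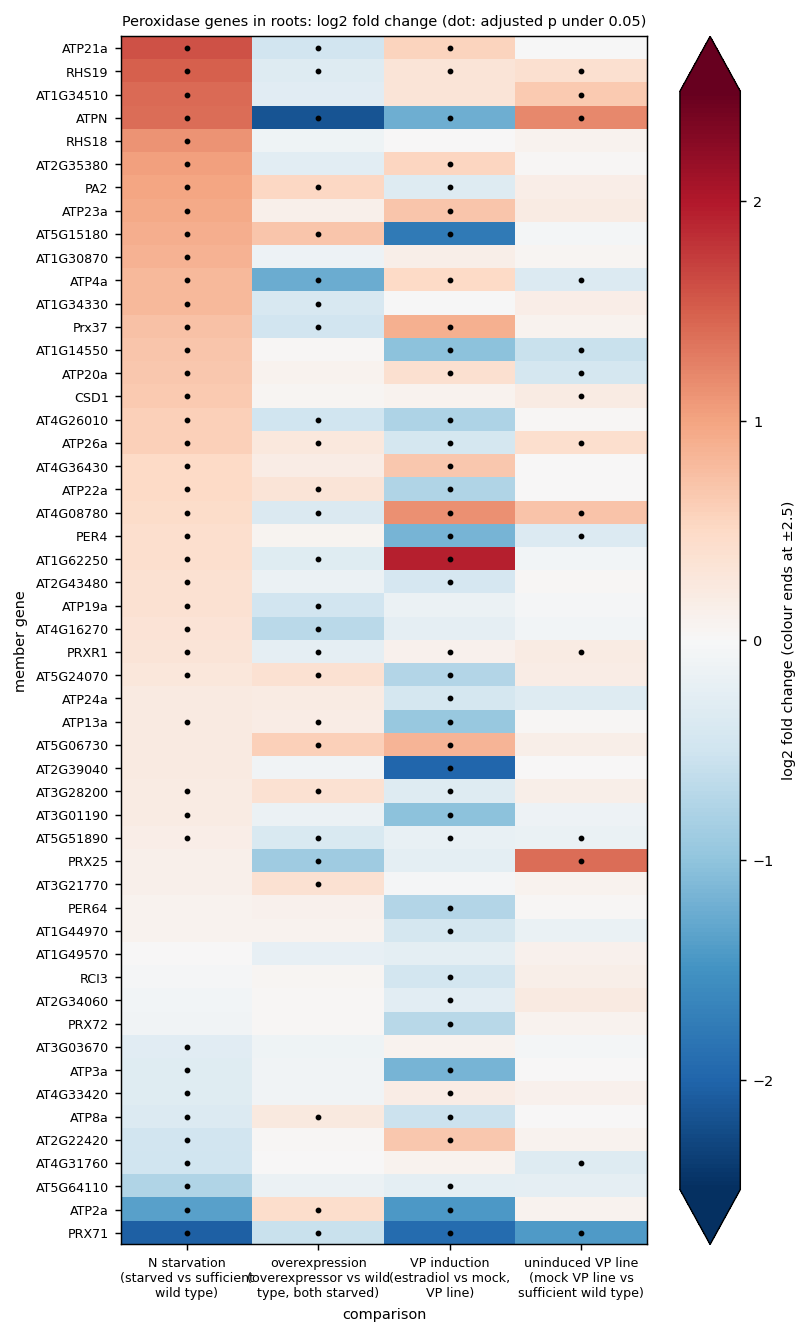
Log2 fold change (colour, from blue for lower to red for higher) of the 52 peroxidase genes tested in roots (rows, ordered by the change under nitrogen starvation) in the 4 comparisons (columns). A dot marks an adjusted p under 0.05; the nitrogen starvation column holds 32 rises and 9 falls, and the VP induction column 14 rises and 26 falls.

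After 24 h of VP induction many root peroxidase genes were lower than with mock treatment. Of 52 tested, 26 fell and 14 rose, together 76.9%, where 43.9% of all probe sets were called (28.3% lower and 15.6% higher). The median was -0.25 over the members and -0.07 over all probe sets. With a change of at least 1, 11 members were called (21.2%, against 4.3% of all).

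AT2G39040 stood at 7.88, 8.04 and 7.95 with mock treatment and at 6.03, 5.75 and 6.13 with estradiol, -1.98 ± 0.12, adjusted p = 7.04e-12. AT5G15180 fell from 7.79, 8.07 and 7.75 to 6.33, 5.85 and 6.10, -1.77 ± 0.11, adjusted p = 1.76e-11. PRX71 fell from 10.09, 10.51 and 10.55 to 8.57, 8.29 and 8.50, -1.93 ± 0.10, adjusted p = 1.28e-12. In each of these genes the estradiol arrays lay more than 1 log2 unit below the mock arrays. ATP2a fell by 1.44 ± 0.08, adjusted p = 1.47e-12 and ATPN by 1.22 ± 0.34, the latter with estradiol arrays spread over 7.11, 6.06 and 6.88.

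Peroxidases of the burst and defence list fell for 5 of 6, and Prx37 rose. Over all probe sets tested 28.3% fell and 15.6% rose. PER4 fell by 1.17 ± 0.10, adjusted p = 1.57e-09 and AT1G14550 by 1.03 ± 0.15. ATP24a (-0.43 ± 0.15; -0.27 without replicate 3 of the mock-treated VP line, adjusted p = 0.182, and not called either without replicates 1 or 2 of the estradiol-treated VP line) and PA2 (-0.32 ± 0.12; -0.24 without replicate 3 of the mock-treated VP line, adjusted p = 0.15, and not called either without replicate 2 of the estradiol-treated VP line) were the smaller falls. On the root hair list 2 of 7 rose and 3 fell: ATP21a rose by 0.55 ± 0.14 and RHS19 by 0.32 ± 0.12 (0.27 without replicate 2 of the estradiol-treated VP line, adjusted p = 0.148, and not called either without replicate 1 of the estradiol-treated VP line or replicates 1 or 2 or 3 of the mock-treated VP line), whereas ATP3a fell by 1.17 ± 0.08, adjusted p = 1.67e-10 and AT4G26010 by 0.76 ± 0.10. Root hair markers were lower for 1 of 8 and higher for none, with a summed level of 11.11 to 11.15 with mock and 10.91 to 11.04 with estradiol.

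The lignin and Casparian strip list split. Of 10 tested 5 fell and 3 rose, where 28.3% of all probe sets tested fell and 15.6% rose. PER64 fell from 10.29, 10.38 and 10.35 to 9.72, 9.52 and 9.60 (-0.73 ± 0.06, adjusted p = 7.92e-10), PRX72 fell by 0.69 ± 0.06, adjusted p = 5.18e-09, and RCI3 (AT1G05260), a cold-inducible peroxidase, by 0.45 ± 0.05. AT2G22420 (0.68 ± 0.08) and AT4G36430 (0.68 ± 0.09) rose. The endodermis markers fell beside PER64: 7 of 8 fell, with a median of -0.66, CASP1, a scaffold protein of the Casparian strip, by 0.70 ± 0.05 and ESB1, needed for its lignin, by 0.60 ± 0.04. Their summed level was 12.62 to 12.64 with mock and 11.99 to 12.05 with estradiol, and the part of endodermal cells in the fall of PER64 was not tested. Xylem markers fell for 5 of 6, by at most 0.27 ± 0.09 for IRX3. Of monolignol synthesis 7 rose and 3 fell of 15 tested, with a median of 0.10. Of the laccases 4 rose and 5 fell of 11 tested, with a median of -0.19, with LAC7 at -1.62 ± 0.08 and LAC5 at 0.85 ± 0.09. Among NADPH oxidases 4 of 8 rose and 3 fell, RBOHF at 1.29 ± 0.07 and RBOHG at -1.50 ± 0.09. Of the regulators MYB15 (1.50 ± 0.12) and MYB63 (0.83 ± 0.13), both activators of lignin genes, rose and none of 6 fell. On the UPB1 list ATP13a fell (-0.95 ± 0.05) and the other two were not called.

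Of the rises in roots the 3 largest were in AT1G62250 and in a pair of adjacent genes. AT1G62250, the unknown protein, rose from 6.86, 6.84 and 6.38 to 8.48, 8.81 and 8.62 (1.94 ± 0.11, adjusted p = 4.93e-12). AT4G08780 rose from 8.38, 8.09 and 8.03 to 9.29, 9.18 and 9.47 (1.15 ± 0.14, adjusted p = 6.64e-07), and the adjacent Prx37 from 9.61, 9.63 and 9.80 to 10.51, 10.50 and 10.68 (0.89 ± 0.12, adjusted p = 1.91e-06). No estradiol array of these 3 genes overlapped a mock array, which the choice of the largest rises required. AT5G06730 rose by 0.84 ± 0.11 and ATP23a by 0.69 ± 0.09. Without each of the 6 arrays in turn 33 of the 40 calls were kept; the 7 lost were ATP24a, PA2, RHS19, PRXR1 (AT4G21960), AT2G34060, AT4G33420 and AT5G64110.

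The mock-treated VP line already differed from the sufficient wild type in some root peroxidases. Of 52 tested, 8 were higher and 7 lower, 28.8% against 18.2% of all probe sets (12.1% higher and 6.1% lower), and 3 (5.77%) were called with a change of at least 1, against 0.352%. The median was 0.03, and 0.05 over all probe sets. With each array's median set to the same value the split was 6 higher and 8 lower. PRX71 was lower, at 10.09, 10.51 and 10.55 in the mock VP line (-1.42 ± 0.10, adjusted p = 7.35e-09), so its fall with estradiol started from a level below that of the wild type. PRX25 was higher, at 7.72, 7.84 and 7.87 in the sufficient wild type and 9.61, 9.04 and 8.95 in the mock VP line (1.39 ± 0.12, adjusted p = 5.87e-08), and AT4G08780 was higher by 0.71 ± 0.14. ATPN was called at 1.2 ± 0.34 (0.85 without replicate 3 of the sufficient wild type, adjusted p = 0.105, and not called either without replicate 1 of the mock-treated VP line or replicate 2 of the sufficient wild type). Without replicate 1 of the sufficient wild type, whose ATPN level of 8.00 stood apart from the other two, it was 1.85, adjusted p = 2.86e-06. Only 7 of the 15 calls were kept without each of the 6 arrays; besides ATPN, those lost were AT1G14550, AT1G34510, AT4G31760, AT5G51890, CSD1, PER4 and RHS19.

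By list, the burst and defence peroxidases had 3 of 6 lower and none higher, the root hair list 1 of 7 higher, and the lignin list 1 higher and 1 lower of 10, and no member of the UPB1 list was called. Over all probe sets tested 12.1% were higher and 6.1% lower, and the root hair and lignin counts lie near these shares. Root hair markers had 2 of 8 higher and 1 lower, endodermis markers 2 of 8 lower and xylem markers 2 of 6 lower. All 3 tested photosynthesis markers were lower, with a median of -0.76, from a summed 10.78 to 10.87 in the sufficient wild type to 9.85 to 10.10 in the mock VP line. Of monolignol synthesis 3 of 15 were higher, with F5H1 at 1.03 ± 0.10, and 1 lower, of the laccases 2 of 11 were higher, of the NADPH oxidases 1 was higher and 2 lower of 8, and of the regulators 1 was higher and 1 lower of 6.

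In shoots the measured members were fewer and their shares called lay at or below those of all probe sets, except in the mock-treated VP line. Under nitrogen starvation 9 of 34 rose and 7 fell, 47.1% against 54.1% of all probe sets (27.8% higher and 26.3% lower), with a median of 0.03 (0.00 over all). With a change of at least 1, 5 were called (14.7%, against 7.91%). The largest change was in ATP24a, a peroxidase of the burst and defence and the root hair lists. It stood at 7.49, 8.15 and 7.94 in sufficient shoots and at 5.18, 5.11 and 5.25 in starved shoots, a fall of 6.4-fold (-2.68 ± 0.18, adjusted p = 1.27e-08), with no overlap.

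AT3G28200 fell from 9.39, 9.52 and 9.64 to 8.32, 8.50 and 8.59 (-1.05 ± 0.11, adjusted p = 1.23e-06). AT2G34060 fell by 0.89 ± 0.10, ATP19a by 0.74 ± 0.18, PRX71 by 0.67 ± 0.19 and ATP26a by 0.62 ± 0.08, and the fall of ATP2a (-0.68 ± 0.21) rests on 1 array (-0.44 without replicate 1 of the starved wild type, adjusted p = 0.0778). The rises were led by AT3G21770, at 7.29, 7.49 and 7.28 with and 8.57, 8.45 and 8.37 without nitrogen (1.11 ± 0.12, adjusted p = 1.20e-06). PRXR1 rose from 12.51, 12.49 and 12.44 to 13.61, 13.50 and 13.49 (1.05 ± 0.07, adjusted p = 4.48e-09). CSD1, the superoxide dismutase and so not a peroxidase, rose by 1.05 ± 0.12, AT4G36430 by 0.87 ± 0.15, PA2 by 0.77 ± 0.16 and AT5G58390 by 0.57 ± 0.12. Without each array in turn 14 of the 16 calls were kept, the others being ATP2a and RCI3 (0.30 ± 0.12; 0.23 without replicate 3 of the sufficient wild type, adjusted p = 0.17, and not called either without replicates 1 or 3 of the starved wild type or replicate 2 of the sufficient wild type).

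Of the burst and defence peroxidases 1 of 5 rose (PA2) and 2 fell (ATP24a and PRX71), of the root hair list 1 of 4 fell, of the lignin list 2 of 7 rose and 1 fell, and of the UPB1 list 1 of 2 fell. Over all probe sets tested 27.8% rose and 26.3% fell, so these small counts are not read as results about the lists. Of monolignol synthesis 9 rose and 2 fell of 16 tested, with a median of 0.37, with 4CL2 at 1.44 ± 0.13. Of the laccases 3 of 8 rose and of the NADPH oxidases 2 of 4, RBOHD, the oxidase of the pathogen burst, by 1.07 ± 0.13. Of the xylem markers 1 of 5 rose, no root hair or endodermis marker of the 4 tested on each list was called, and 3 of 4 photosynthesis markers fell.

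**Figure D3:**
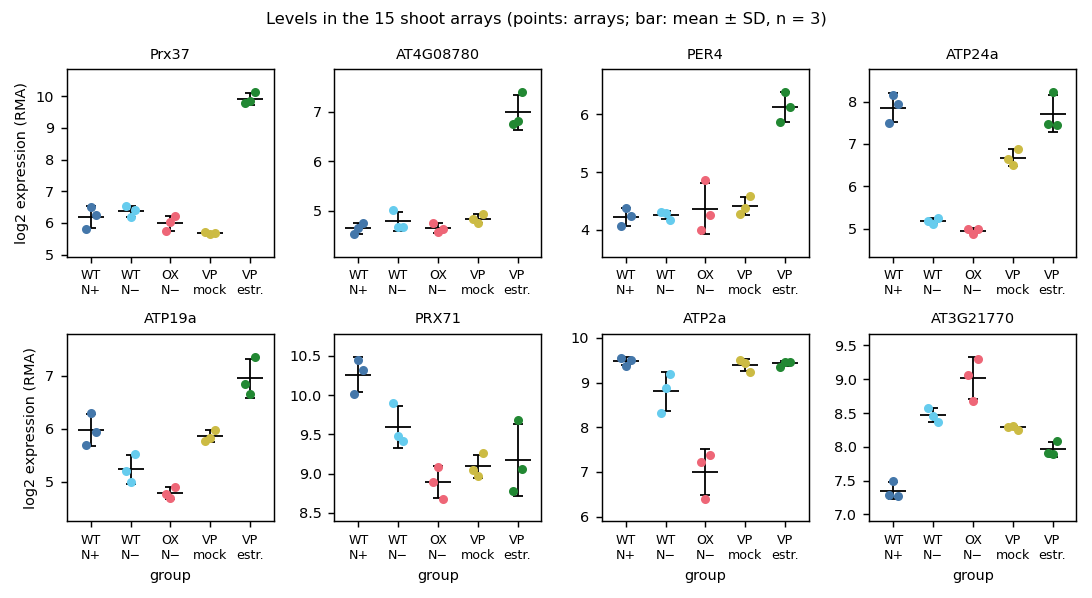
Log2 expression (RMA, vertical axes, one scale per gene) of 8 peroxidase genes in the 15 shoot arrays, by group: wild type with (N+) and without nitrogen (N-), starved overexpressor (OX N-), and the VP line with mock or estradiol (estr.). Points are arrays and bars are means ± SD (n = 3); Prx37, AT4G08780 and PER4 stand apart in the estradiol arrays alone, and ATP24a is lowest in both starved groups. PER4 lies below the filter on low values in shoots.

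In starved shoots the overexpressor had 7 of 34 members higher and 6 lower, 38.2% against 51.3% of all probe sets (30.6% higher and 20.7% lower), with a median of -0.04 (0.06 over all) and 2 called with a change of at least 1 (5.88%, against 5.88%). ATP2a stood at 8.32, 8.89 and 9.19 in the starved wild type and at 7.22, 6.40 and 7.37 in the overexpressor (-1.80 ± 0.21, adjusted p = 3.21e-06), so that it was lower in the overexpressor in shoots and higher in roots. AT1G62250 fell from 8.64, 8.76 and 8.79 to 7.32, 7.30 and 7.25 (-1.44 ± 0.08, adjusted p = 6.30e-10). The groups of both genes were far apart. AT2G34060 fell by 0.74 ± 0.10 and PRX71 by 0.71 ± 0.19. PA2 rose by 0.96 ± 0.16, adjusted p = 9.48e-05, AT5G58390 by 0.88 ± 0.12, AT4G33420 by 0.82 ± 0.14 and AT2G22420 by 0.67 ± 0.10, the latter pair being peroxidases of the lignin list. AT3G21770 rose further, by 0.55 ± 0.12, and AT3G28200 rose by 0.44 ± 0.11 (0.28 without replicate 1 of the overexpressor, adjusted p = 0.0221). ATP8a was called at 0.99 ± 0.27 although its arrays overlap, with 5.27, 4.95 and 5.69 in the wild type and 6.28, 5.68 and 6.93 in the overexpressor.

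The calls of ATP19a (-0.44 ± 0.18; -0.30 without replicate 3 of the starved wild type, adjusted p = 0.213, and not called either without replicates 1 or 2 or 3 of the overexpressor or replicate 1 of the starved wild type) and CSD1 (-0.37 ± 0.12; -0.30 without replicate 1 of the starved wild type, adjusted p = 0.0797, and not called either without replicate 3 of the overexpressor) were lost without some arrays, and the other 11 were kept. UPB1 was lower by 2.96 ± 0.29. Of the UPB1-listed peroxidases ATP19a was lower and ATP13a was not called (0.51 ± 0.27). Of the burst and defence list 1 of 5 rose and 1 fell, of the lignin list 2 of 7 rose and 1 fell, and of the 4 of the root hair list none was called. Over all probe sets tested 30.6% were higher and 20.7% lower. Of monolignol synthesis 4 rose and 3 fell of 16 tested, with a median of -0.04, with CAD4 at -1.58 ± 0.08. Of 8 laccases 1 rose and 1 fell, of 4 NADPH oxidases RBOHD fell (-0.31 ± 0.13), 2 of 5 xylem markers fell, 1 of 4 endodermis markers rose (SCR, 0.28 ± 0.11), none of 4 root hair markers was called and all 4 photosynthesis markers fell, from a summed 14.70 to 14.94 in the starved wild type to 13.95 to 14.15 in the overexpressor.

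The largest change of any member was under VP induction, in shoots. Prx37 stood at 5.72, 5.65 and 5.69 with mock treatment and at 9.79, 9.85 and 10.14 with estradiol, a rise of 18.9-fold (4.24 ± 0.16, adjusted p = 8.73e-12). Its neighbour AT4G08780 rose from 4.83, 4.74 and 4.92 to 6.75, 6.82 and 7.40 (2.16 ± 0.15). It passed the filter through the estradiol group only, and with no filter its adjusted p was 4.04e-09. In the other 4 shoot groups Prx37 had means of 5.69 to 6.37 and AT4G08780 means of 4.64 to 4.83, the latter below the filter level. ATP19a rose from 5.77, 5.84 and 5.99 to 6.84, 6.65 and 7.36 (1.08 ± 0.18, adjusted p = 1.17e-04) and ATP24a from 6.66, 6.50 and 6.89 to 7.48, 8.22 and 7.45 (1.04 ± 0.18, adjusted p = 2.35e-04). In all 4 genes every estradiol array lay above every mock array, which the choice of the largest rises required.

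As a whole, 8 of 34 rose and 5 fell, 38.2% against 49.3% of all probe sets (23.8% higher and 25.5% lower), with a median of 0.04 (-0.03 over all) and 4 called with a change of at least 1 (11.8%, against 5.03%). The rises include AT4G08780 and AT1G14550, which passed the filter only through the estradiol group, and AT4G08780 is among the changes of at least 1. With no filter 9 of 64 members rose and 6 fell, 23.4% called against 36% of all probe sets. Among the 34 tested, the falls were led by AT2G34060 (-0.75 ± 0.10) and ATP26a (-0.63 ± 0.08). PRXR1 rose by 0.36 ± 0.07. Peroxidases of the burst and defence list rose for 3 of 5 tested and fell for none: Prx37, ATP24a and AT1G14550 (0.26 ± 0.10; 0.19 without replicate 2 of the estradiol-treated VP line, adjusted p = 0.196, and not called either without replicate 1 of the estradiol-treated VP line or replicates 1 or 2 or 3 of the mock-treated VP line). AT1G14550 passed the filter only through its estradiol arrays and was not called with no filter (adjusted p = 0.0545), which leaves 2 rises. PER4, adjacent to AT1G14550, was below the filter and is singled out after its values were seen. Its arrays stood at 4.28, 4.39 and 4.58 with mock and 5.87, 6.39 and 6.13 with estradiol, and with no filter its change was 1.72 ± 0.17 (adjusted p = 4.30e-07).

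Of the root hair list 1 of 4 rose (ATP24a), of the lignin list 1 of 7 rose (ATP19a) and 2 fell, PRX25 (-0.35 ± 0.12; -0.29 without replicate 2 of the mock-treated VP line, adjusted p = 0.109, and not called either without replicates 1 or 2 or 3 of the estradiol-treated VP line or replicate 3 of the mock-treated VP line) and AT5G51890 (-0.39 ± 0.11), and of the UPB1 list 1 of 2 rose, again ATP19a. The NADPH oxidases rose for 2 of 4, RBOHF by 1.32 ± 0.13 and RBOHD by 1.12 ± 0.13. Of monolignol synthesis 3 rose and 5 fell of 16 tested, with a median of -0.11, and the laccases fell for 5 of 8 and rose for none, LAC4, a laccase of lignification, by 0.52 ± 0.12. Of the xylem markers 2 of 5 fell, no root hair or endodermis marker was called and 1 of 4 photosynthesis markers fell. Beside these list counts, 23.8% of all probe sets tested rose and 25.5% fell. Calls were kept without each array in 9 of 13, and the others were AT1G14550, PRX25, AT3G21770 (-0.32 ± 0.12; -0.29 without replicate 2 of the estradiol-treated VP line, adjusted p = 0.112, and not called either without replicate 1 of the estradiol-treated VP line or replicates 1 or 2 or 3 of the mock-treated VP line) and CSD1 (0.42 ± 0.12; 0.33 without replicate 2 of the estradiol-treated VP line, adjusted p = 0.0622).

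**Figure D4:**
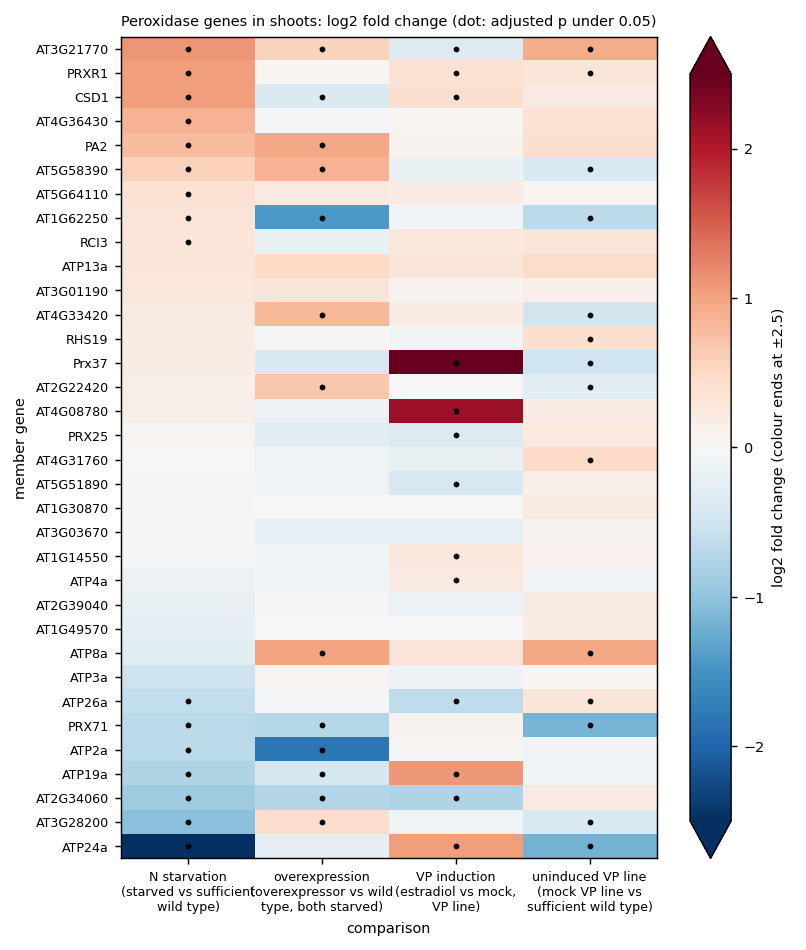
Log2 fold change (colour, from blue for lower to red for higher, with the scale ending at 2.5 each way) of the 34 peroxidase genes tested in shoots (rows, ordered by the change under nitrogen starvation) in the 4 comparisons (columns). A dot marks an adjusted p under 0.05; Prx37 and AT4G08780 under VP induction and ATP24a under starvation are the strongest colours.

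The mock-treated VP line differed from the sufficient wild type in 6 members that were higher and 8 that were lower, 41.2% against 33.4% of all probe sets (17.7% higher and 15.8% lower), with a median of 0.18 (0.02 over all) and 2 called with a change of at least 1 (5.88%, against 1.68%). ATP24a was lower by 1.18 ± 0.18, adjusted p = 1.99e-04 and PRX71 by 1.17 ± 0.19, adjusted p = 2.68e-04, so the rise of ATP24a with estradiol, to 7.72 ± 0.44 (mean ± SD, n = 3), brought it near the 7.86 ± 0.33 of the sufficient wild type. AT3G21770 was higher by 0.93 ± 0.12, AT1G62250 lower by 0.65 ± 0.08, AT4G31760 higher by 0.47 ± 0.12, and ATP8a was called at 0.98 ± 0.27 (0.81 without replicate 1 of the sufficient wild type, adjusted p = 0.0525, and not called either without replicate 1 of the mock-treated VP line). Calls were kept without each array in 7 of 14, those lost being ATP8a, AT2G22420, AT3G28200, AT4G33420, AT5G58390, Prx37 and RHS19. Of the burst list 3 of 5 were lower, of the lignin list 2 of 7 were lower, and of the root hair list 1 of 4 was higher and 1 lower. Of monolignol synthesis 4 were higher and 5 lower of 16, of the laccases 4 of 8 were higher, of the NADPH oxidases RBOHD was lower (-0.61 ± 0.13), of the xylem markers 3 of 5 and of the endodermis markers 1 of 4 were higher, of the photosynthesis markers 1 of 4 was lower, and UPB1 was lower by 2.08 ± 0.29.

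Members below the filter added calls when no filter was set. In roots 5 of the 12 fell with starvation and none rose, where 25.8% of all probe sets below the filter fell. The falls of all 64 members then numbered 14 in place of 9, with 32 rises. In shoots 6 of the 30 were higher in the mock-treated VP line and none lower, where 7.53% of all probe sets below the filter were higher, and the members higher numbered 12 in place of 6. Elsewhere in shoots 3 rose with starvation, 1 rose and 1 fell in the overexpressor, and 2 rose and 1 fell with estradiol. Of all shoot probe sets below the filter, 4.1% rose with starvation, and 4.04% rose and 3.72% fell in the overexpressor. With estradiol 3.4% of them rose and 7.28% fell. In roots 2 were lower in the mock-treated VP line, where 5.28% of all probe sets below the filter were lower. None was called in roots in the overexpressor or with estradiol in limma, where 7.69% and 6.61% of all probe sets below the filter were called. In each of these comparisons 1 member had an unadjusted p under 0.05.

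Overexpression and VP induction were set side by side because the study used both forms of AtNIGT1.2, and they share no array. The 2 comparisons also differ in nitrogen supply and timing. Overexpression was measured in seedlings starved for 3 days, and VP induction at 5 mM ammonium nitrate with 24 h of treatment. Between them the form of the factor, nitrogen supply and timing cannot be told apart. In roots 21 members were called in both, 16 of them in opposite directions (76.2%, where 62.8% of all probe sets called in both were opposite). Lower in the overexpressor and higher with estradiol were 7 members (13.5% of 52, against 5.09% of all probe sets): ATP4a (-1.25 and 0.50), Prx37 (-0.49 and 0.89), AT4G08780 (-0.37 and 1.15), ATP21a (-0.47 and 0.55), RHS19 (-0.32 and 0.32), AT1G62250 (-0.30 and 1.94) and PRXR1 (-0.23 and 0.11). Only ATP4a and Prx37 of these kept both calls without each array in turn. For the others, 1 of the values left after leaving out an array was -0.22 without replicate 1 of the starved wild type, adjusted p = 0.253 (AT4G08780 in the overexpressor), -0.21 without replicate 3 of the starved wild type, adjusted p = 0.244 (RHS19), -0.24 without replicate 1 of the overexpressor, adjusted p = 0.135 (AT1G62250), -0.37 without replicate 3 of the starved wild type, adjusted p = 0.0797 (ATP21a) and, with estradiol, 0.09 without replicate 2 of the mock-treated VP line, adjusted p = 0.125 (PRXR1).

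In the opposite sense, 9 root members were higher in the overexpressor and lower with estradiol (17.3%, against 7.85% of all probe sets). AT5G15180 stood at 0.69 and -1.77, ATP2a at 0.44 and -1.44, ATP22a at 0.32 and -0.75, and ATP13a at 0.19 and -0.95. The other 5 were AT3G28200, ATP8a, PA2, AT5G24070 and ATP26a. Lower in both were PRX71, ATPN, AT4G26010 and AT5G51890 (5.34% of all probe sets), and higher in both was AT5G06730 (2.34% of all). In shoots 4 members were called in both: ATP19a (-0.44 and 1.08) and CSD1 (-0.37 and 0.42) were lower and then higher (5.88% of 34, against 4.17% of all probe sets), AT3G21770 (0.55 and -0.32) was higher and then lower (5.31% of all), and AT2G34060 (-0.74 and -0.75) was lower in both (8.65% of all), while no member but 10.1% of all probe sets were higher in both. The shoot response of Prx37 had no counterpart that was called in the overexpressor (-0.38 ± 0.16, adjusted p = 0.056).

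**Figure D5:**
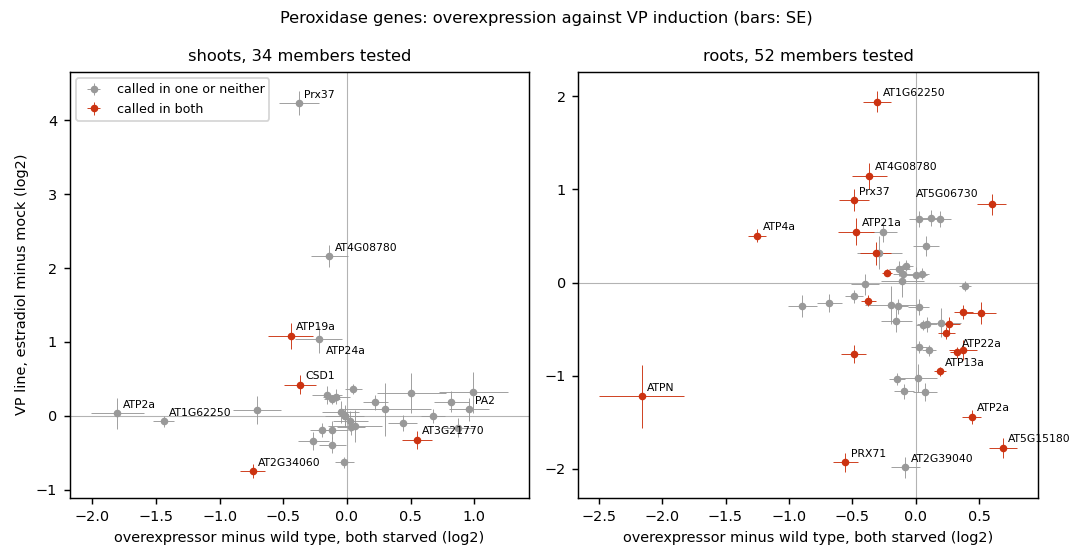
Log2 fold change with AtNIGT1.2 overexpression (horizontal axis, overexpressor minus wild type) against that with VP induction (vertical axis, estradiol minus mock) for the peroxidase genes tested in shoots (left, 34) and roots (right, 52). Points are genes, bars are standard errors and red marks genes called in both comparisons; in roots 16 of 21 red points lie to the upper left or lower right of the zero lines.

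Some members sit next to each other in the genome. By the order of loci in the reference table, 7 pairs were adjacent, covering 13 members. The pair of Prx37 and AT4G08780 rose together with estradiol in both tissues (4.24 and 2.16 in shoots, 0.89 and 1.15 in roots), the shoot filter having been passed by AT4G08780 through the estradiol group only. PER4 and AT1G14550 fell together with estradiol in roots (-1.17 and -1.03). PA2 and AT5G06730 moved apart there, at -0.32 and 0.84. In the run ATP3a, AT5G64110 and PRX71 all 3 fell in roots under starvation (-0.30, -0.76 and -2.05) and with estradiol (-1.17, -0.25 and -1.93). AT5G64110 passed the root filter only through the sufficient wild type. Its estradiol call was lost without replicate 2 of the mock-treated VP line (-0.22, adjusted p = 0.0633). In starved shoots AT5G64110 rose (0.36), PRX71 fell (-0.67) and ATP3a was not called (-0.51). The deposited tables do not say whether probes of such adjacent copies respond to each other's transcripts.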

How the data were processed

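Expression in 15 shoot and 15 root samples was measured on Affymetrix arrays. The deposited log2 values were made by the authors with RMA, per the file headers, whereas the submitters' processing notes name MAS5; the tool's version and a genome build are not given in the sources used here. The separate shoot and root tables were treated as normalized separately, so nothing was tested between tissues. The deposited series matrix holds the same log2 values. The same tables hold the authors' p-values and q-values, per the file headers, used only as an alternative. Of 22746 probe sets, 21452 name 1 locus; symbols are those of the TAIR10.1 gene table.

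All 15 arrays of a tissue entered 1 linear model of group means in limma 3.58.1 (R 4.3.3), moderated with an intensity trend. Tests were two-sided, with Benjamini-Hochberg adjustment over the 15922 probe sets at or above the 30th percentile of mean level and a threshold of 0.05. The fit was tested on simulated data. Named genes were, per tissue and comparison, up to 6 of the largest rises and falls among called members with non-overlapping groups, plus members lower in overexpression and higher in VP induction, known wall and defence peroxidases, and up to 4 genes of each list by smallest adjusted p. The lists covered peroxidases of root hairs, of lignin and the Casparian strip, of the oxidative burst and defence and of UPB1 control, with monolignol synthesis, laccases, NADPH oxidases, regulators, and markers of root hairs, endodermis, xylem and green tissue. A few genes outside this rule are named for their neighbours, their array spread or their calls in both overexpression and VP induction, after their values were seen. The members and lists were chosen with earlier results of these data known, and lists are described by counts and medians without a test of their own. Alternatives were other filters, scalings and samples, a replicate block, each array left out and the authors' adjusted values.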

Additional observations from a re-analysis of the deposited data

Results flagged for a closer look

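The 8 changes given here were called in both tissues, in opposite directions. For each, the 3 arrays of one group all lay above those of the other group in one tissue and all below in the other. The share of all probe sets that do the same is not given here, so the 8 are not read as a trait of the family. The difference between the tissues was not tested in any of them, since the tables were normalized separately. Under nitrogen starvation AT3G28200 fell in shoots (-1.05 ± 0.11) and rose in roots (0.21 ± 0.08), a root call that was lost without replicate 3 of the starved wild type among others (0.14 without replicate 3 of the starved wild type, adjusted p = 0.152). ATP19a, a peroxidase of the UPB1 list, fell in shoots (-0.74 ± 0.18) and rose in roots (0.38 ± 0.07). ATP26a did the same (-0.62 ± 0.08 in shoots and 0.59 ± 0.08 in roots), while AT5G64110 rose in shoots (0.36 ± 0.10) and fell in roots (-0.76 ± 0.08). In roots AT5G64110 passed the filter only through the sufficient wild type, the group its fall is measured from. With overexpression ATP2a fell in shoots (-1.80 ± 0.21) and rose in roots (0.44 ± 0.08). With VP induction AT1G14550 rose in shoots (0.26 ± 0.10), where it passed the filter only through the estradiol group (adjusted p = 0.0545 with no filter), and fell in roots (-1.03 ± 0.15), and ATP24a rose in shoots (1.04 ± 0.18) and fell in roots (-0.43 ± 0.15). The shoot call of AT1G14550 (0.19 without replicate 2 of the estradiol-treated VP line, adjusted p = 0.196) and the root call of ATP24a (-0.27 without replicate 3 of the mock-treated VP line, adjusted p = 0.182) were lost without single arrays. In the mock-treated VP line AT4G31760 was higher in shoots (0.47 ± 0.12) and lower in roots (-0.32 ± 0.09), the root call being lost without 1 array (-0.29 without replicate 3 of the mock-treated VP line, adjusted p = 0.0519). Groups of 3 arrays are too small to look for single outlying arrays.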

How the results depend on the processing

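Of the 182 values of the 46 named members, none reversed in 2486 recomputations under other filters, no intensity trend, 2 groups only, other scalings, a replicate block, the series matrix or each array left out. Of these, 2354 kept their side of the threshold, 110 lost a call and 22 gained one. In the authors' deposited table, Benjamini-Hochberg values under 0.05 were fewer: for nitrogen starvation, overexpression and VP induction 8, 3 and 3 in shoots and 14, 4 and 23 in roots; the cause was not tested. The authors' q-values under 0.05 in the same table numbered 15, 11 and 12 in shoots and 37, 9 and 35 in roots. With the filter at the 50th percentile, which tests fewer genes, the shoot counts were 8 for overexpression, 7 for VP induction and 9 for the mock-treated line. Of the members lower in the overexpressor and higher with VP, shoots had 1 instead of 2 with no filter, with the 50th percentile filter, with quantile normalization and without the members annotated otherwise, an alternative added after seeing the data, and roots had 4 instead of 7 with no intensity trend. With each array left out in turn the shoot counts ran from 14 to 17, 11 to 14, 9 to 13 and 9 to 13 (the 9 of the mock-treated line without sufficient wild type replicate 3 or mock replicate 2), and the root counts from 38 to 41, 21 to 28, 35 to 39 and 10 to 17. The members lower in the overexpressor and higher with VP numbered between 0 and 3 in shoots and between 3 and 7 in roots, the 3 in roots being without starved wild type replicate 3 or overexpressor replicate 1. Deviations of same-numbered arrays from their group means had correlations between -0.46 and 0.18 (shoots) and between -0.14 and 0.16 (roots). No strong shared shift by replicate number was seen, but such values cannot settle whether same-numbered samples were handled together. With the replicate block the called members were 15, 13, 12 and 14 in shoots and 41, 27, 40 and 15 in roots. The lowest-mean probe set per locus was not run, because every member has 1 probe set. The files hold no detection calls, so signals near the filter level may be background, and 3 arrays per group limit the precision.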

Other observations

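The 6 probe sets annotated as peroxidase that match several loci gave values that cannot be assigned to 1 gene. The probe set of AT3G49110 and AT3G49120, the PRXCA and PRXCB peroxidases known for the pathogen-induced oxidative burst, rose in shoots with starvation (0.68 ± 0.11), in the overexpressor (0.38 ± 0.11) and with estradiol (1.33 ± 0.11). In roots it fell with starvation (-1.05 ± 0.07) and with estradiol (-1.24 ± 0.07) and rose in the overexpressor (0.21 ± 0.07). The probe set of AT4G37520 and AT4G37530 rose in shoots in the overexpressor (1.05 ± 0.13) and with estradiol (1.39 ± 0.13), and in roots fell with starvation (-0.35 ± 0.07) and estradiol (-0.34 ± 0.07). The probe set of AT1G05240 and AT1G05250 rose in starved roots (0.83 ± 0.10) and fell with estradiol (-0.53 ± 0.10). In starved shoots 5 of the 6 rose, by 0.59 ± 0.18 for AT1G05240 and AT1G05250 up to 1.25 ± 0.16 for AT2G18140 and AT2G18150; AT4G37520 and AT4G37530 were the exception at 0.16 ± 0.13.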
